A study of Mus musculus with 9 samples.

Results

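The libraries labelled Wee1 siRNA (small interfering RNA) were set against a negative control (NC) in 4T1, a transplantable mammary tumour line from the mouse. These are 6 of the 9 libraries in the series, 3 in each group, all taken at day 2. The other 3 libraries came from cells treated with MK1775 (adavosertib), a drug that inhibits Wee1, and were used for values side by side and for a direct test against the siRNA label. The genes described are those with a mean of at least 1 FPKM (fragments per kilobase of transcript, relative to library size) over the 6 libraries, which left 10433 of 52306 named genes. The sources used here do not give what the NC cells received, the siRNA sequences and doses, or what the marks 1# to 3# of the siRNA libraries stand for. They do not name separate cultures either, and p-values then reflect only how far these libraries scatter, which may be technical.

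Wee1 is a tyrosine kinase of the nucleus that phosphorylates Cdk1 and so holds the cyclin B-Cdk1 complex inactive until a cell is ready to divide. Its relative Pkmyt1 (Myt1) acts on the same kinase at membranes, and the Cdc25 phosphatases remove the phosphate. The kinase also restrains Cdk2 during DNA replication, so cells that lose its activity can fire too many origins, run short of nucleotides and enter mitosis early. An siRNA loaded into an Argonaute protein guides the cleavage of the matching messenger RNA, so a working siRNA is read out as a lower level of its target transcript.

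Wee1 itself, the gene named in the label, was not lower in the siRNA-labelled libraries. Its FPKM was 11.5, 10.5 and 11 in NC and 13.1, 15.1 and 15.3 in the siRNA-labelled libraries. The groups did not overlap, and every siRNA-labelled library was above every NC library. The mean rose from 11 ± 0.498 to 14.5 ± 1.22 (SD, n = 3 each), which is 1.32-fold, or 0.37 on the log2(FPKM + 1) scale (SE 0.0784, 95% interval 0.19 to 0.55, limma adjusted p = 0.00639). An exact two-sided permutation test of 3 against 3 gave p = 0.1, the smallest it can give. The 1 named Wee1 transcript lies at chr7:109721253-109742700 on the plus strand of GRCm39, with 11 exons and a length of 3626 bases. An assembled transcript with no gene name at the same locus had 0.193, 0.0999 and 0.351 FPKM in NC and 2.24, 0.562 and 1.20 in the siRNA-labelled libraries, so adding it did not turn the direction. The MK1775 libraries had 15.5 ± 1.16 FPKM of Wee1 (SD, n = 3). The siRNA label differed from MK1775 by -0.09 (log2, 95% interval -0.27 to 0.09, exact permutation p = 0.6). Wee2, the oocyte form of the kinase, was listed at 0 in NC and at 0.0493 FPKM in 1 siRNA-labelled library. No reduction of the transcript accompanied the label, so all directions below are those of the libraries labelled Wee1 siRNA against NC, whatever those cells received.

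The siRNA-labelled libraries resembled the MK1775 libraries as closely as they resembled each other. Across genes on the log2(FPKM + 1) scale, Pearson's r was 0.968 to 0.974 among siRNA-labelled libraries, 0.968 to 0.976 between them and MK1775, and 0.921 to 0.939 between them and NC; genes are not independent replicates, and these values are a description. FPKM summed to between 321551 and 332950 per library, and 10017 to 10783 named genes reached 1 FPKM. No counts were used, so the depth is unknown. Among keratins of simple epithelium, Krt18 was at 251 ± 22.7 FPKM in NC and 435 ± 1.24 in the siRNA-labelled libraries, and Krt8 at 196 ± 12.9 and 267 ± 3.78 (SD, n = 3 each). Krt7 was lower, at 24.4 and 14 FPKM, and Krt19 stood at only 1.45 and 1.74. The epithelial adhesion genes Epcam (0.0573 and 0.421 FPKM) and Cldn7 (0.0840 and 0.0370) were near 0 in both groups, which is at odds with a fully epithelial profile. Of 22 immune markers, 11 were listed at 0 in all 6 libraries and 18 had a mean under 1 FPKM; their sum ran from 11.3 to 14 in NC and from 12.7 to 15.4 in the siRNA-labelled libraries. The summed fibroblast markers (2.21 to 3.60 against 2.66 to 3.41) and endothelial markers (1.19 to 1.95 against 1.60 to 1.80) overlapped between the groups, while the blood markers did not (0.274 to 0.386 against 1.41 to 1.84). Itgax, a myeloid integrin, was listed at 0 in NC and at 2.37, 2.89 and 0.548 FPKM in the siRNA-labelled libraries, while Cd3e, Adgre1 and Lyz2 were listed at 0 in all 6. Itgam (0 and 0.451) and Ptprc (0.0126 and 0.326, or 1.96 with unnamed transcripts added) were also higher in the siRNA-labelled libraries, and Cd68 (3.69 and 2.63) was lower. In all, 4 of the 22 immune markers were above NC in every siRNA-labelled library and 2 were below it. Over all genes tested, 23.7% were above and 28.4% below in this way. Those genes had passed the minimum of 1 FPKM, which 18 of the 22 markers did not, so the shares are not like for like. The 11 markers at 0 in all 6 libraries could not separate in either direction. The count is therefore not read as a result about immune markers. The part of such markers in the results was not tested. In bulk RNA, fewer cells of a type and less RNA per cell cannot be told apart.

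Of the genes tested, 42.6% (4440) passed an adjusted p of 0.05 in limma, 2002 of them higher (19.2%) and 2438 lower (23.4%) in the siRNA-labelled libraries. Larger changes were mostly rises: 354 genes (3.39%) rose and 114 (1.09%) fell by at least 1 on the log2 scale. The groups did not overlap for 5434 genes (52.1%), 2468 higher and 2966 lower. The median difference over all genes tested was -0.02. All counts of list members below are to be read against 19.2% rises and 23.4% falls. Genes with an NC mean under 1 FPKM entered the test only through the siRNA-labelled libraries, and their calls are no further support.

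**Figure D1:**
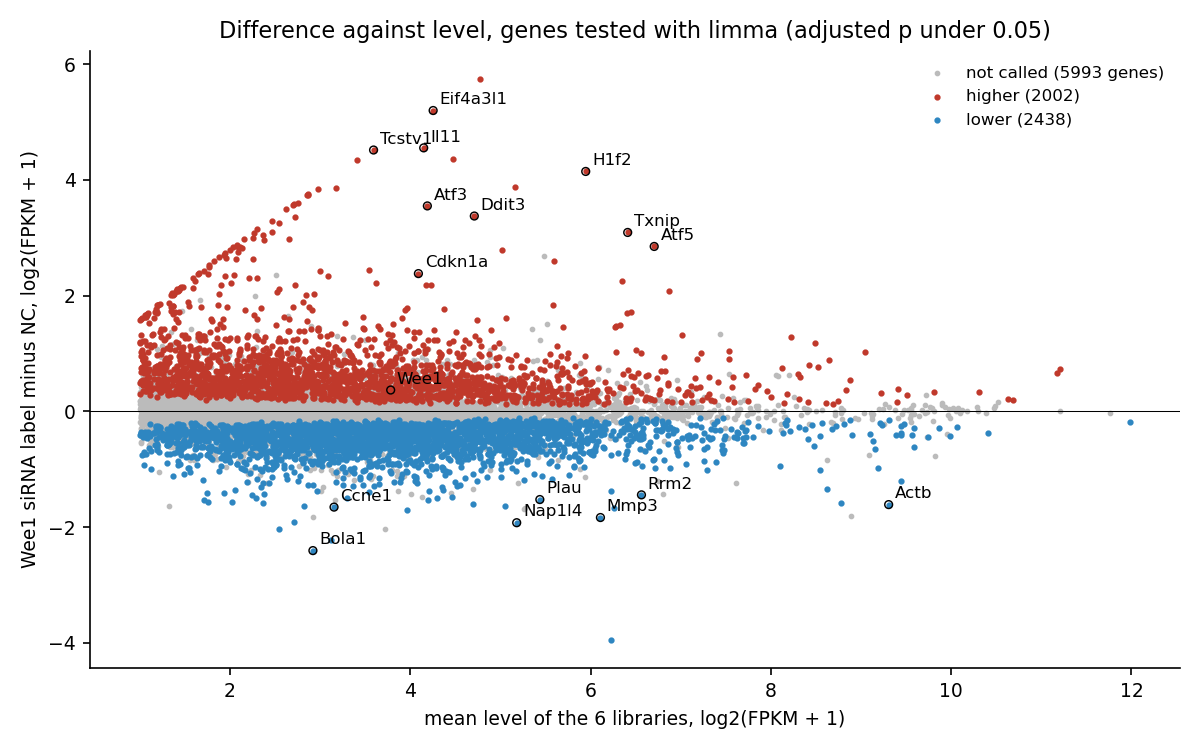
Difference between the siRNA-labelled and NC libraries (vertical axis, log2(FPKM + 1)) against the mean level over the 6 libraries (horizontal axis, same scale), 1 point per gene tested; red points are called higher (2002), blue points lower (2438), grey points not called. The tallest points are rises, led by Eif4a3l1 and Il11, and Wee1 sits just above 0.

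Il11, a cytokine of the Il6 family that signals through Il6st (gp130), had the largest log2 difference among genes above 0 in every NC library. It stood at 0.320, 0.530 and 0.504 FPKM in NC and at 34.8, 30.6 and 33.7 in the siRNA-labelled libraries. All 3 siRNA-labelled libraries were far above NC, with a mean 73.2-fold higher and a log2 difference of 4.55 (SE 0.0756). Every NC value was under 1 FPKM, so the gene passed the minimum only through the siRNA-labelled libraries. Its call is therefore no further support, and the fold rests on an NC level near 0. The gene lies at chr7:4775372-4785858 (GRCm39, minus strand). Of 22 tested genes of the Il6 family and TGF-beta signalling, 13 rose and 3 fell, with a median difference of 0.52. Tgfb2, a secreted TGF-beta, rose from 0.926 ± 0.0967 to 4.48 ± 0.312 FPKM, and Smad7, the inhibitory Smad that TGF-beta induces, from 3.06 ± 0.154 to 9.91 ± 0.117 (SD, n = 3 each). Id2, a dominant-negative helix-loop-helix factor, rose from 14.2 ± 0.258 to 31.7 ± 1.54 FPKM, and Skil (SnoN), a Smad co-repressor, from 2.29 ± 0.439 to 10.4 ± 1.30. The groups did not overlap for any of these 5 genes, against 52.1% of all genes tested. They were picked by adjusted p, by size or with their values known, so this is no further support. Tgfb2, like Il11, passed the minimum only through the siRNA-labelled libraries.

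The integrated stress response is the programme in which phosphorylated eIF2 slows general translation while favouring translation of Atf4, which then activates genes for amino acid supply, redox balance and, if stress persists, cell death. Of its 33 tested genes (of 38 listed), 21 rose and 1 fell, with a median difference of 0.52. Atf3, a stress-induced repressor, stood at 1.92, 2.00 and 1.67 FPKM in NC and 36.6, 32.3 and 29.0 in the siRNA-labelled libraries (17.5-fold, log2 3.55, SE 0.0852, limma adjusted p = 1.08e-07). Ddit3 (CHOP), which promotes death under lasting stress, stood at 3.23, 4.04 and 3.56 FPKM against 43.4, 49.5 and 47.4 (12.9-fold, log2 3.37, SE 0.0787, limma adjusted p = 1.08e-07). For both genes the lowest siRNA-labelled library was many times above the highest NC library. Atf5 rose from 24.5 ± 1.90 to 182 ± 13.5 FPKM, Nupr1, a small stress-induced chromatin protein, from 7.14 ± 0.586 to 55.4 ± 5.92, and Ppp1r15a (Gadd34), which brings the eIF2 phosphatase, from 3.34 ± 0.216 to 19.3 ± 0.874. Atf4 itself changed less, from 99.7 ± 5.73 to 188 ± 4.95 FPKM (1.88-fold, limma adjusted p = 7.34e-06). Asns, the asparagine synthetase, rose 2.08-fold to 122 ± 1.49 FPKM, and Trib3, a pseudokinase that feeds back on Atf4, rose 2.83-fold to 26.8 ± 1.34. Chac1, which degrades glutathione, rose 2.11-fold to 18.8 ± 0.599 FPKM. The member that fell was Cth, an enzyme of cysteine synthesis, from 23.2 ± 1.47 to 17.7 ± 0.315 FPKM.

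Promoters were searched for TGATGNAA, a form of the element bound by Atf4 dimers, on both strands and in the window from 250 bases before to 50 bases after the start, as given by RefSeq for GRCm38.p6 (another build than that of the expression table). Of the 33 tested stress response genes, 28 matched by symbol or a listed alternative symbol. Of these, 8 (28.6%) held the motif in any promoter. Also counted over any promoter of a gene, it was in 4.51% of all 27025 genes. Among genes tested, 7904 matched by symbol alone, and 2.35% of these held it. Per promoter, the share was 3.97% of all 32851. The motif was present in 5 of 19 matched members that rose and in 3 of 9 that did not, so holding it did not go with rising among these few genes. The 5 promoters with the motif among members that rose are shown because they place the element in a stress gene that changed here. They lie at chr1:191183284-191183583 (Atf3, minus), chr2:119350992-119351291 (Chac1, plus), chr2:152344011-152344310 (Trib3, minus), chr6:7693160-7693459 (Asns, minus) and chr7:126625421-126625720 (Nupr1, minus). Each is 300 bases, 5′ to 3′ on the gene's strand, and capitals mark the motif, which reads TTNCATCA where it lies on the opposite strand.
Atf3: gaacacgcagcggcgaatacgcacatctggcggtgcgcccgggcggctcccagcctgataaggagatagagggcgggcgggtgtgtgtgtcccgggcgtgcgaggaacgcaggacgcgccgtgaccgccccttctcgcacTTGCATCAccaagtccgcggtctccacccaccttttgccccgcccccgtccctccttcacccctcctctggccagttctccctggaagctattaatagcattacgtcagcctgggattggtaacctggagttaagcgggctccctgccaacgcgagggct
Chac1: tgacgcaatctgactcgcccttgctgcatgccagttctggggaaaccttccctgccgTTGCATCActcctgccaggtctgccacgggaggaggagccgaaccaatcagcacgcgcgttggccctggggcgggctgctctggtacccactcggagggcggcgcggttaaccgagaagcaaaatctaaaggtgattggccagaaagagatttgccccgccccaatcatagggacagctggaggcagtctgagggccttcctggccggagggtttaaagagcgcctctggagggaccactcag
Trib3: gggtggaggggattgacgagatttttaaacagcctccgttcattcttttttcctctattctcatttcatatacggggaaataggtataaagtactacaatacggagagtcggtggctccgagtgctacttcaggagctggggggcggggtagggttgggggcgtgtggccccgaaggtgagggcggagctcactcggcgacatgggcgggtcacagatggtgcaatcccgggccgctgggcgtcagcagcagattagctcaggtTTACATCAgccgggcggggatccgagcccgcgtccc
Asns: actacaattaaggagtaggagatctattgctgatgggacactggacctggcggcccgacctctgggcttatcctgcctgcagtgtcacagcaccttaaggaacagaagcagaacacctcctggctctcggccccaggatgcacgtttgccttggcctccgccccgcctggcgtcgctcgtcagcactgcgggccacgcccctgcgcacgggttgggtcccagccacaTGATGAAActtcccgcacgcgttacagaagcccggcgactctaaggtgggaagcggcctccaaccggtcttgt
Nupr1: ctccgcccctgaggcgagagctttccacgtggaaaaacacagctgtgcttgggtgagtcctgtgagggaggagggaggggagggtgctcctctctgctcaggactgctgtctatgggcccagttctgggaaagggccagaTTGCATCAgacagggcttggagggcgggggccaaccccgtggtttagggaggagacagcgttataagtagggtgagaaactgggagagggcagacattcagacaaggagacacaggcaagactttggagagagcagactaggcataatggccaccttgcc
The motif began at -110 from the start in Atf3 and Nupr1, at -193 in Chac1, at -23 in Asns and at 15 after it in Trib3. It lay on the gene's own strand in Asns and on the opposite strand in the other 4. A match of letters is a description of the window and not a measured binding site.

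**Figure D2:**
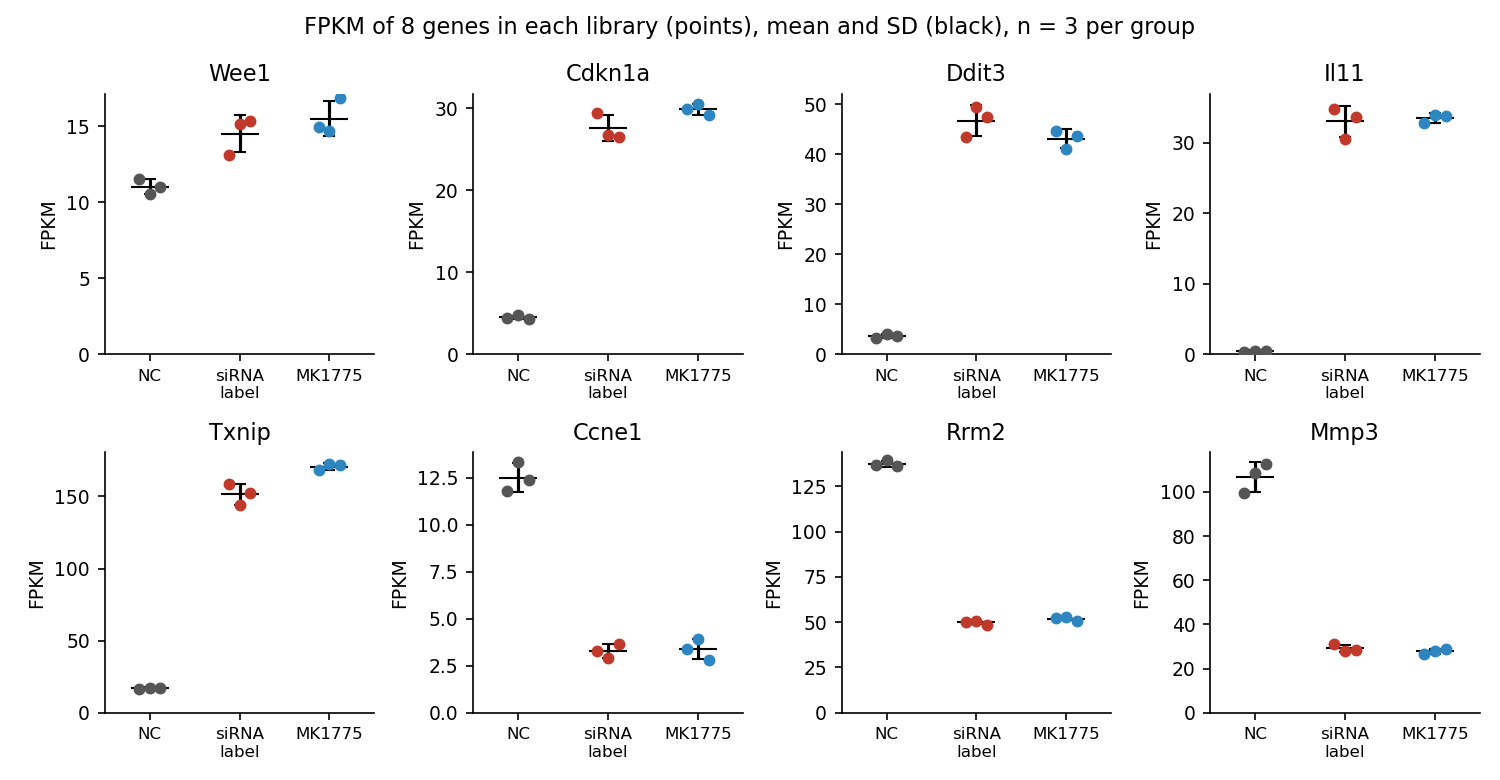
FPKM (vertical axes, linear from 0) of Wee1, Cdkn1a, Ddit3, Il11, Txnip, Ccne1, Rrm2 and Mmp3 in each library (points) of NC, the siRNA label and MK1775, with the mean and SD in black (n = 3 per group). The siRNA-labelled and MK1775 points lie at like heights and apart from NC in all 8 panels, and Wee1 is higher in both than in NC.

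Cdk1 and Pkmyt1 were not called, while several of their partners changed. Of 20 tested genes of the Cdk1 switch (of 21 listed), 7 rose and 4 fell, with a median of 0.10. Cdk1 was 41.4, 42.0 and 41.3 FPKM in NC and 43.9, 43.4 and 45.0 in the siRNA-labelled libraries (log2 0.08, limma adjusted p = 0.0943). Pkmyt1 was 10.9 ± 0.469 and 11.4 ± 0.628 FPKM (log2 0.06, adjusted p = 0.455). Ccnb1, the B-type cyclin that activates Cdk1, rose from 76.7 ± 2.22 to 118 ± 7.50 FPKM, and Ccnb2 from 62.9 ± 1.34 to 82.9 ± 3.46. Aurka, the mitotic kinase that starts activation of Plk1, rose from 40.0 ± 3.65 to 114 ± 17.4 FPKM. Ensa, an inhibitor of the phosphatase that opposes Cdk1, rose from 18.2 ± 1.63 to 26.5 ± 0.971. Ccna2 (-0.41), Plk1 (-0.32) and the phosphatase Cdc25a (-0.33) fell on the log2 scale.

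Genes of G1 and S phase were mostly lower. Of 52 tested (of 54 listed), 33 fell and 3 rose, with a median of -0.40. Ccne1, cyclin E1, which activates Cdk2 at the start of S phase, stood at 11.8, 13.3 and 12.4 FPKM in NC and at 3.28, 2.93 and 3.67 in the siRNA-labelled libraries. The ranges were far apart, with a mean 3.80-fold lower (log2 -1.66, SE 0.109, limma adjusted p = 1.90e-05). Rrm2, the regulated subunit of ribonucleotide reductase, stood at 137, 139 and 136 FPKM against 50.1, 50.8 and 48.7 (2.76-fold lower, log2 -1.44, SE 0.0353, limma adjusted p = 1.15e-07). Tk1, thymidine kinase, was 2.64-fold lower, Rfc5 of the clamp loader 1.85-fold, Uhrf1, which carries DNA methylation through replication, 1.84-fold and Pcna, the sliding clamp, 1.46-fold. For all of these the siRNA-labelled and NC libraries did not overlap, against 52.1% of all genes tested. These genes were picked by adjusted p, by size or with their values known, so this is no further support.

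Genes of G2 and mitosis went the other way in part. Of 53 tested, 22 rose and 6 fell, and the median was 0.31. Ube2c, an E2 enzyme of the anaphase-promoting complex, rose from 206 ± 3.69 to 349 ± 4.95 FPKM. Prc1, which bundles the central spindle, rose from 50.2 ± 2.42 to 103 ± 5.47 and Ndc80 of the outer kinetochore from 15.3 ± 2.87 to 42.1 ± 6.05. Nusap1, a spindle protein, rose from 14.4 ± 1.40 to 33.8 ± 4.63 FPKM. The fall with the smallest adjusted p was Pimreg, from 36.1 ± 0.828 to 15.2 ± 1.46 FPKM. Kif20a rose by 0.49 (log2, limma adjusted p = 5.89e-05), but its most abundant transcript alone differed by 0.08 (adjusted p = 0.733).

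The summed level of replication-dependent histone genes was far higher in the siRNA-labelled libraries. Their transcripts normally end in a stem-loop in place of a poly(A) tail, and whether poly(A) RNA was selected is not given in the sources used here. Summed over all 58 genes of the list in the table, their FPKM was 20.7, 23.5 and 18 in NC and 373, 345 and 369 in the siRNA-labelled libraries. The means were 20.7 ± 2.78 and 362 ± 15 (SD, n = 3 each), and MK1775 had 361 ± 21.4. The minimum of 1 FPKM was passed by 22 genes, mostly through the siRNA-labelled libraries, so the fact that those 22 all rose is no further support; the other 36 were not tested. Of those 36, 27 had a higher and 9 a lower mean in the siRNA-labelled libraries, among the latter H2ac10 (1.32 and 0.117 FPKM) and H2ac8 (0.444 and 0.156). With no filter on low values 33 histone genes rose and 4 fell, and with a minimum mean of 5 FPKM 5 rose. H1f2, a linker histone, was 5.47, 6.49 and 4.91 FPKM in NC and 123, 109 and 115 in the siRNA-labelled libraries (log2 4.14, SE 0.0974, limma adjusted p = 1.08e-07). H2bc4 rose from 1.06 ± 0.172 to 41.4 ± 5.97 FPKM, H4c9 from 3.61 ± 0.937 to 66.2 ± 0.778 and H4c18 from 0.177 ± 0.170 to 15.9 ± 1.91. H3c2 (0.170 ± 0.0437 to 11 ± 0.824) and H2bc6 (0.113 ± 0.0304 to 8.21 ± 0.482) did the same from levels near 0. Coding sequences of these genes are nearly alike, so the split of reads among single histone genes is uncertain while the sum is less so. H2ax, the variant histone that is phosphorylated at DNA breaks and is made throughout the cycle, rose only from 85.1 ± 4.79 to 139 ± 10.1 FPKM.

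**Figure D3:**
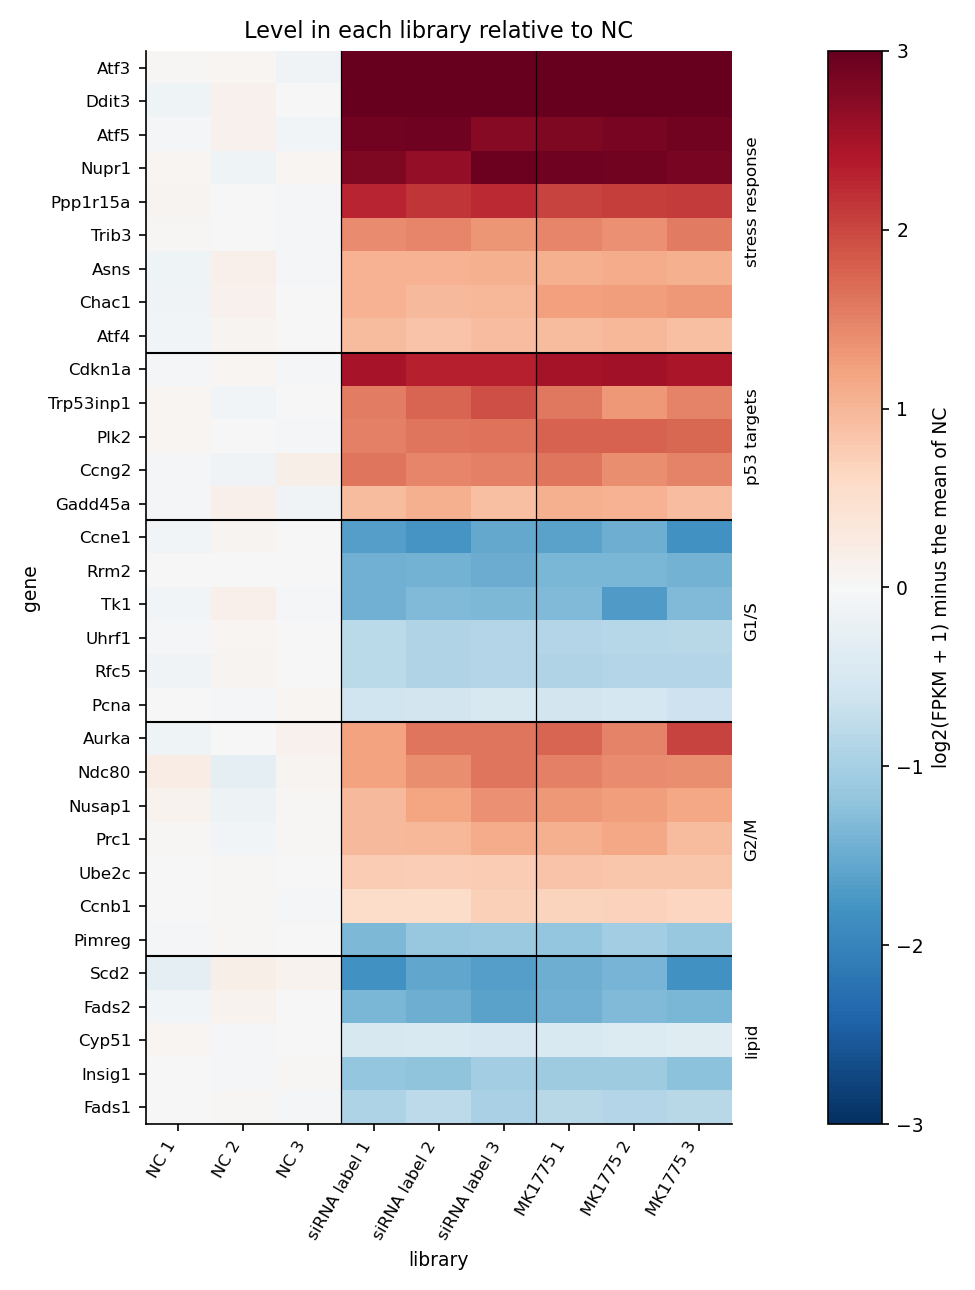
Level of 32 genes in each of the 9 libraries, as log2(FPKM + 1) minus the mean of NC (colour, red higher and blue lower; differences beyond 3 are drawn as 3), in 5 groups from the stress response to lipid synthesis. The 3 siRNA-labelled columns look like each other and like the 3 MK1775 columns.

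Targets of p53, the DNA damage-activated transcription factor, rose more often than they fell at the minimum of 1 FPKM, but not at 5 FPKM. Of 28 tested (of 32 listed), 14 rose and 7 fell, with a median of 0.33. Among members with a mean of at least 5 FPKM only 5 rose, and the median was -0.01. The number that fell was 5 to 7 under every alternative in processing. Cdkn1a (p21), the inhibitor of cyclin-dependent kinases, stood at 4.37, 4.74 and 4.36 FPKM in NC and at 29.4, 26.8 and 26.5 in the siRNA-labelled libraries. All 3 siRNA-labelled values were above all NC values, 6.14-fold in the mean (log2 2.38, SE 0.0570, limma adjusted p = 1.08e-07). Plk2 rose from 12.4 ± 0.485 to 39.1 ± 1.69 FPKM, and Ccng2, an unusual cyclin linked to arrest, from 3.97 ± 0.548 to 13.3 ± 0.683. Trp53inp1 rose from 0.172 ± 0.0585 to 2.92 ± 0.540, but passed the minimum only through the siRNA-labelled libraries. Gadd45a, a stress sensor of the G2 checkpoint, rose 2.29-fold. Trp53 itself was 17.1 ± 1.33 FPKM in NC and 17.1 ± 0.434 in the siRNA-labelled libraries (adjusted p = 0.999). Mdm2, the ubiquitin ligase that p53 induces, was 8, 8.16 and 7.52 FPKM against 5.90, 13.8 and 14.8, where the siRNA-labelled libraries fell on both sides of NC (adjusted p = 0.285). Under 3 of 23 alternatives in processing Mdm2 was called higher, and its log2 difference ran from 0.18 to 0.78 over all of them. Of 50 tested genes of DNA damage signalling and repair, 9 rose and 15 fell, both near the share over all genes apart from a slight excess of falls. Msh6 of mismatch repair fell from 30.3 ± 1.01 to 18.4 ± 0.840 FPKM, Parp1 from 59.1 ± 2.06 to 39.6 ± 1.81 and Fanca from 12.8 ± 0.978 to 7.18 ± 0.431.

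Machinery of RNA interference leaned lower. Of 15 tested genes (of 18 listed), 7 fell and 1 rose, with a median of -0.29. The median of the same genes in MK1775 against NC was -0.46, so the lean was not particular to the siRNA label. Drosha, the nuclear enzyme that cuts primary microRNA transcripts, fell from 29.6, 31.0 and 30.1 FPKM to 16.8, 17.1 and 17.8 (log2 -0.78, SE 0.0514, limma adjusted p = 1.94e-05). Tsn (-0.57), a nuclease partner that clears passenger strands, and Prkra (-0.42), a Dicer partner, fell on the log2 scale. Tarbp2, another Dicer partner, fell by 0.58; its most abundant transcript alone differed by -0.55, which was not called (adjusted p = 0.0839). Ago2, the slicing Argonaute, was 24.6 ± 1.24 FPKM in NC and 22.8 ± 0.760 in the siRNA-labelled libraries (adjusted p = 0.132). Dicer1 was 2.44, 1.04 and 0.653 FPKM against 0.926, 1.15 and 0.120, with overlapping groups (adjusted p = 0.308).

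Sensors of foreign RNA did not move as a group, and some interferon-stimulated genes rose. Of 10 tested sensors and adaptors (of 18 listed), 2 rose and 3 fell. Irf7, a transcription factor for interferons, rose from 0.634 ± 0.0565 to 1.59 ± 0.164 FPKM, and Myd88, an adaptor of Toll-like receptors, fell from 16.2 ± 0.768 to 12.9 ± 0.919. Ddx58 (RIG-I) rose from 3.19 ± 0.423 to 6.09 ± 0.265 FPKM and Mavs, its adaptor, fell from 14.6 ± 0.649 to 11 ± 0.544 (log2 0.76 and -0.38). From the most abundant transcript alone Ddx58 differed by 0.56 (adjusted p = 0.0679) and Mavs by -0.07 (adjusted p = 0.715), and neither was called. Eif2ak2 (PKR), the kinase activated by double-stranded RNA, was 4.84 ± 0.760 and 4.73 ± 0.574 FPKM (adjusted p = 0.886). Of 13 tested interferon-stimulated genes (of 32 listed), 8 rose, with a median of 0.32; with a minimum mean of 5 FPKM, or with the most abundant transcript of each gene, 4 rose. The chemokine Cxcl10 rose from 0.318 ± 0.0178 to 1.90 ± 0.106 FPKM, and the antigen-processing genes Tap1 and Psmb9 from 3.47 ± 0.0328 to 8.08 ± 0.692 and from 2.40 ± 0.379 to 4.79 ± 0.393. Oasl1 rose from 1.07 ± 0.158 to 3.09 ± 0.226 FPKM. The MK1775 libraries had 2.5 ± 0.230 FPKM of Cxcl10 and 3.82 ± 0.188 of Oasl1.

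Immediate-early genes, the transcription factors that respond within a short time to growth signals and stress, rose more often than they fell. Of 33 tested (of 36 listed), 20 rose and 4 fell, with a median of 0.37. Egr1 stood at 2.69, 2.61 and 2.53 FPKM in NC and at 20.3, 18.5 and 17.3 in the siRNA-labelled libraries, with no overlap (7.17-fold, log2 2.45, SE 0.0667, limma adjusted p = 1.78e-07). Klf10 rose 3.70-fold, Klf6 3.17-fold, Junb 3.69-fold and Fos 7.86-fold, the last from 0.597 ± 0.211 to 4.69 ± 0.558 FPKM. Of 28 tested inflammatory genes driven by NF-kB, 13 rose and 6 fell, with a median of 0.32. The NF-kB subunit Rela rose from 20.6 ± 0.746 to 40.7 ± 3.34 FPKM, and the inhibitor Nfkbia from 24.9 ± 1.26 to 36.4 ± 1.12. The subunit Nfkb2 rose from 30.8 ± 1.72 to 57.4 ± 4.37 FPKM, a log2 difference of 0.88 that was 0.73 and not called from its most abundant transcript alone (adjusted p = 0.129). Vcam1, an adhesion molecule that NF-kB induces, fell from 16.3 ± 0.163 to 8.7 ± 0.416.

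**Figure D4:**
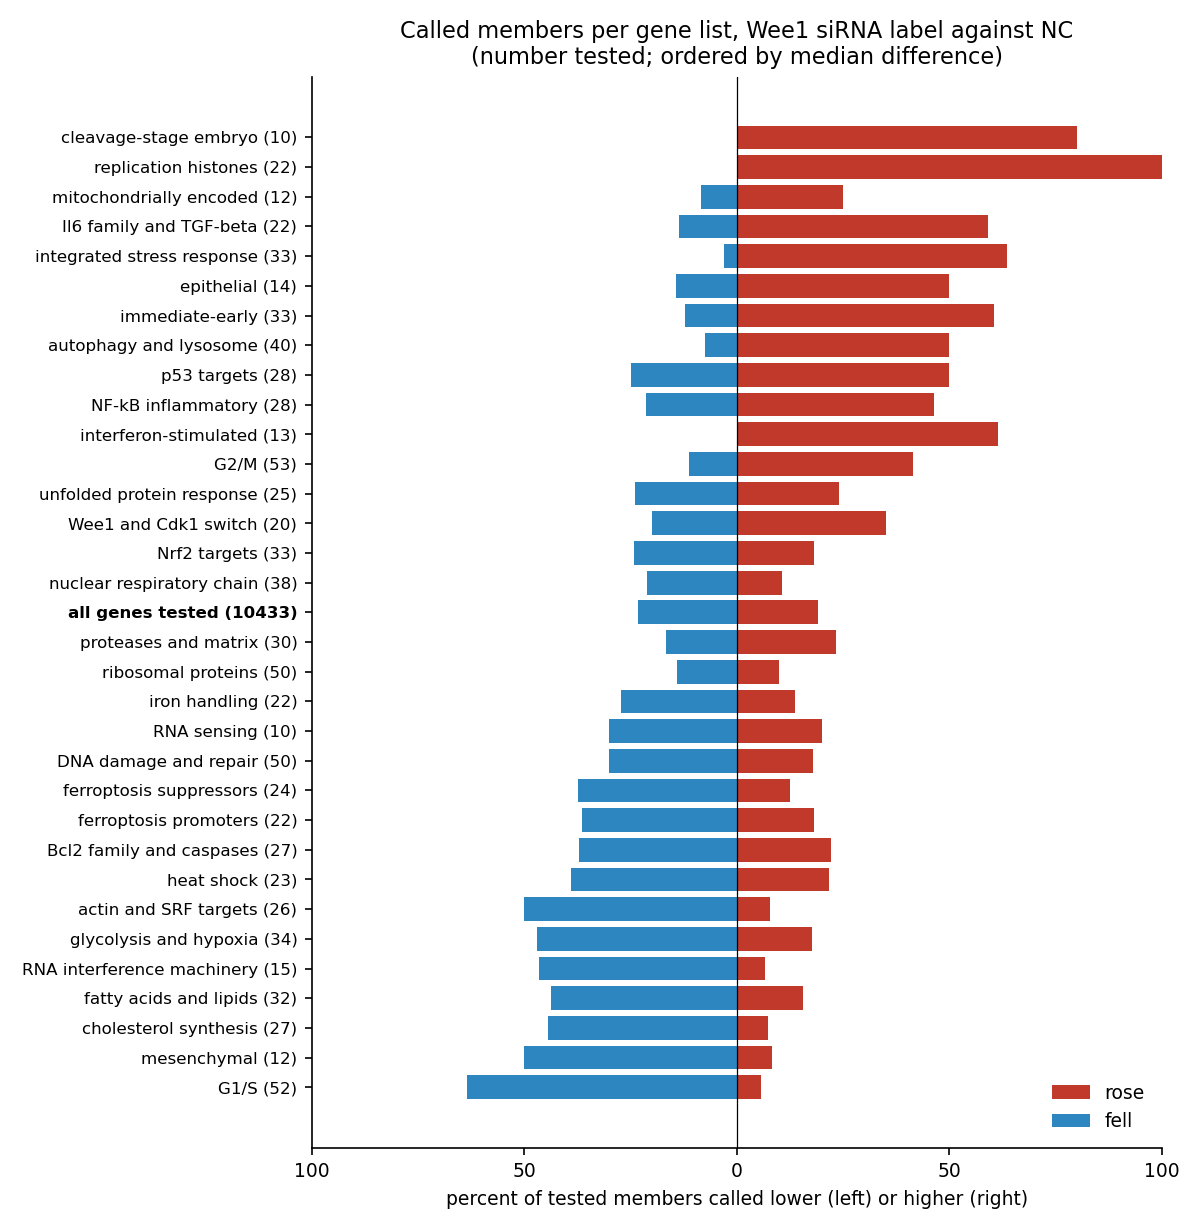
Share of tested members called higher (red, right) or lower (blue, left) in the siRNA-labelled libraries, for 32 gene lists and for all genes tested (horizontal axis in percent, number tested in brackets), ordered by the median difference. The stress response lies toward the rising end, and G1/S and mesenchymal genes at the falling end; the bars of the replication histones and cleavage-stage genes hold members that passed the minimum mostly through the siRNA-labelled libraries, and are no support for a rise. Over all genes the shares are 19.2% and 23.4%.

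Genes of lipid and cholesterol metabolism fell more often than they rose. Of 32 tested genes of fatty acid and lipid metabolism, 14 fell and 5 rose, with a median of -0.30, and of 27 genes of cholesterol synthesis 12 fell and 2 rose, with a median of -0.33. Scd2, a desaturase that makes monounsaturated fatty acids, stood at 94.3, 131 and 123 FPKM in NC and at 31.9, 38.5 and 36.0 in the siRNA-labelled libraries, with no overlap (3.27-fold lower, log2 -1.67, SE 0.152, limma adjusted p = 9.21e-05). Fads2 and Fads1, which desaturate polyunsaturated chains, fell 2.96-fold and 1.95-fold. Among rises was Cpt1a, the gate for fatty acids into mitochondria, from 5.13 ± 0.569 to 9.62 ± 0.268 FPKM. Insig1, the sterol sensor of the pathway, fell 2.41-fold, Cyp51 1.46-fold and Acat2 1.30-fold.

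Genes of glycolysis and hypoxia fell in 16 of 34 cases and rose in 6, with a median of -0.24. Hk2, a hexokinase, fell from 12.8 ± 0.135 to 7.35 ± 0.353 FPKM. The leading rises were Txnip, a brake on glucose uptake, from 16.1, 17.4 and 17.1 to 158, 144 and 152 FPKM (8.96-fold, log2 3.09, SE 0.0474, limma adjusted p = 9.14e-09), and its relative Arrdc4, from 0.602 ± 0.184 to 2.66 ± 0.224. Both limit glucose entry, unlike the enzymes that make up most of the list. Ndrg1, a stress-responsive gene, rose 2.02-fold. The nuclear genes of the respiratory chain had 4 rises and 8 falls among 38, with a median of -0.01. Of 12 tested mitochondrially encoded genes 3 rose and 1 fell, but their median over the members was -0.41 in the lowest and 0.79 in the highest siRNA-labelled library relative to NC, so the libraries did not share a direction. Among 50 ribosomal protein genes 5 rose and 7 fell.

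Among genes of the actin cytoskeleton and targets of its transcription factor SRF, falls outnumbered rises. Of 26 tested (of 33 listed), 13 fell and 2 rose, with a median of -0.24. Actb, cytoplasmic beta-actin, stood at 750, 1107 and 1013 FPKM in NC and at 293, 329 and 302 in the siRNA-labelled libraries, with no overlap (3.10-fold lower, log2 -1.61, SE 0.223, limma adjusted p = 0.000726). Actg1, gamma-actin, fell from 564 ± 62.1 to 221 ± 10.8 FPKM, Pfn1, which feeds actin monomers to filaments, from 930 ± 75.1 to 602 ± 36.2 and the stretch-responsive gene Ankrd1 from 46.9 ± 4.29 to 26.0 ± 1.88. Actb is often used as a reference gene in PCR, and here it was among the 10 leading falls.

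Of 30 tested protease and matrix genes 7 rose and 5 fell, near the shares over all genes tested (19.2% and 23.4%), so the counts do not set the list apart. Mmp3 (stromelysin-1), a secreted metalloprotease, stood at 99.4, 108 and 113 FPKM in NC and at 30.9, 28.1 and 28.5 in the siRNA-labelled libraries, with no overlap (3.66-fold lower, log2 -1.84, SE 0.0626, limma adjusted p = 5.51e-07). It lies at chr9:7445822-7455975 (GRCm39, plus strand). Plau, the urokinase that activates plasminogen, fell 2.97-fold, from 63.3 ± 4.61 to 21.3 ± 0.0946 FPKM. Lamb1, a laminin chain, rose by 0.61 on the log2 scale, and by 0.38 with unnamed transcripts of the locus added.

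Epithelial genes rose in 7 of 14 tested cases (of 32 listed) and fell in 2, and mesenchymal genes fell in 6 of 12 (of 27 listed) and rose in 1. Cdh1, E-cadherin, rose from 2.80 ± 0.171 to 5.35 ± 0.341 FPKM, while Cldn3 of tight junctions fell from 18.2 ± 1.21 to 9.94 ± 0.997. Krt7 was lower by 0.78, a call that was lost without NC library 3 (adjusted p = 0.0659), siRNA-labelled library 1 (0.0503) or siRNA-labelled library 2 (0.0514). The mesenchymal transcription factors Twist1 and Foxc2 fell from 19.8 ± 0.599 to 9.11 ± 0.446 and from 6.25 ± 0.245 to 2.85 ± 0.266 FPKM. Sparc, a matrix glycoprotein, fell 1.54-fold, and Fn1, fibronectin, which counts as mesenchymal, rose 1.63-fold (log2 0.69) under its summed value; its most abundant transcript alone differed by 0.56 and was not called (adjusted p = 0.304).

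Ferroptosis is a form of death by iron-dependent lipid peroxidation that Gpx4 prevents by reducing lipid peroxides with glutathione. Of 24 tested suppressors, 9 fell and 3 rose, of 22 promoters and markers 8 fell and 4 rose, and of 22 genes of iron handling 6 fell and 3 rose. Gpx4 was 135, 153 and 147 FPKM in NC and 150, 161 and 148 in the siRNA-labelled libraries, with overlap (log2 0.08, adjusted p = 0.342). Acsl4, the acyl-CoA synthetase that prepares polyunsaturated chains for membranes, was 13.3 ± 3.75 and 10.5 ± 2.20 FPKM (adjusted p = 0.265), and Tfrc, the transferrin receptor, 35.3 ± 8.69 and 22.5 ± 10.1 (adjusted p = 0.115). Ptgs2, a common marker, was 24.8 ± 2.68 and 30.1 ± 5.41 FPKM (adjusted p = 0.202). Gch1, which makes the antioxidant tetrahydrobiopterin, rose from 1.27 ± 0.139 to 3.99 ± 0.192, and Hmox1, which frees iron from haem, from 7.60 ± 0.740 to 12.4 ± 0.0411. Slc3a2, a subunit of the cystine importer, rose by 0.71 on the log2 scale. Its partner Slc7a11 was under the minimum, at 0.215 FPKM in NC and 0.167 in the siRNA-labelled libraries; with unnamed transcripts of its locus added it was 0.656 and 2.19. Nfs1, the cysteine desulfurase of iron-sulfur cluster assembly, fell by 0.76 on the log2 scale, or by 0.38 with its locus of 4 named genes summed. Targets of Nrf2 rose in 6 and fell in 8 of 33 cases, with a median of 0.00, near the shares over all genes tested (19.2% and 23.4%).

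Chaperones and caspases moved in both directions, while autophagy and lysosomal genes rose more often than they fell. Of 23 heat shock genes 9 fell and 5 rose, with Hspe1, the mitochondrial co-chaperonin, falling from 218 ± 2.34 to 136 ± 2.94 FPKM and Hspa9, the mitochondrial Hsp70, rising from 218 ± 0.558 to 279 ± 5.63. Of 25 genes of the unfolded protein response 6 rose and 6 fell, near the shares over all genes tested (19.2% and 23.4%). Herpud1 rose 1.48-fold, while Pdia4, Manf and Edem1 fell 1.55-fold, 1.47-fold and 1.45-fold. Of 27 Bcl2 family and caspase genes 10 fell and 6 rose. The caspase Casp6 fell from 11.5 ± 0.796 to 5.36 ± 0.855 FPKM, and Birc2, which restrains cell death, rose from 1.94 ± 0.231 to 7.41 ± 1.77. Genes of autophagy and lysosomes had 20 rises and 3 falls among 40, with a median of 0.37. Map1lc3a and Map1lc3b, which coat autophagosome membranes, rose 2.79-fold and 1.97-fold, Gla, a lysosomal galactosidase, 3.28-fold, and Atp6v0d1 of the lysosomal proton pump 2.55-fold.

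Transcripts known from the 2-cell embryo appeared in the siRNA-labelled libraries. Summed over the 26 listed genes in the table, such cleavage-stage genes had 9.02, 6.31 and 18.9 FPKM in NC and 104, 123 and 136 in the siRNA-labelled libraries; MK1775 had 96.0 ± 12.3 (SD, n = 3). Only 10 of the 26 passed the minimum, and mostly through the siRNA-labelled libraries, so a count of calls among them is no support. Eif4a3l1, a copy of an exon junction helicase, was listed at 0 in NC libraries 1 and 3 and at 0.0363 in NC library 2. It stood at 36.7, 36.0 and 35.7 FPKM in the siRNA-labelled libraries, through which alone it passed the minimum, so its call is no support. Tcstv1 was listed at 0.0240, 0 and 0 FPKM in NC and at 20.7, 20.9 and 24.7, and its relative Tcstv3 at 0 in all NC libraries and at 9.02, 12.2 and 11.6. Zfp352, a zinc finger gene of the 2-cell stage, was listed at 0 in NC and at 11, 12.7 and 13.6. Pramel20 (15.2, 11.6 and 7.74) and Eif1ad8 (9.31, 14.7 and 17.3), both listed at 0 in NC, were the last of the 10 leading rises. Usp17lb, a ubiquitin protease gene, was 0.0118 ± 0.0205 in NC and 6.93 ± 0.378 in the siRNA-labelled libraries. These genes belong to families of near-identical copies, so which copy a read came from is uncertain, and the size of their difference rests on the pseudocount.

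Among the 10 leading falls, several were smaller at the level of the whole locus. Assembled transcripts with no gene name took 10.5% ± 0.611 of all FPKM in NC and 12.6% ± 0.304 under the siRNA label (SD, n = 3 each); the part of this in single genes was tested by summing each locus. Bola1, which acts in iron-sulfur clusters, fell from 11.7 ± 0.407 to 1.40 ± 0.163 FPKM (log2 -2.41), but the whole locus, with 2 named genes, differed by -0.82. Fdx2 (-2.04) and Raver1 (-1.63) share a locus of 6 named genes that differed by -0.81. Nap1l4 stood at 13.3, 22.7 and 8.72 FPKM under the siRNA label against 55.6 ± 1.57 in NC (log2 -1.93), and its locus of 2 named genes differed by -0.48. Cox20, an assembly factor of cytochrome oxidase, fell by 1.63, or by 1.18 with unnamed transcripts added. Mmp3, Ccne1, Scd2, Actb and Nrarp, a feedback inhibitor of Notch that fell from 38.0 ± 2.39 to 11.8 ± 0.0883 FPKM, held their size. Of 4157 called genes with official symbols and no overlap, 4010 (96.5%) kept call and direction when the locus was taken into account. Among the exceptions, Fhl2, which would have been the second largest fall at -2.22, turned to 0.81 once the unnamed transcripts of its locus were added.

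Beyond NC, the siRNA label could be tested against MK1775 directly. Of 10433 genes, 1 (0.00958%) passed the adjusted threshold in limma, and 622 (5.96%) had an unadjusted p under 0.05; the groups did not overlap for 12% of genes. That gene was Tmx2, a thioredoxin-related membrane protein, with 10.4, 10.8 and 10.1 FPKM in the siRNA-labelled libraries, 23.6 ± 3.03 in MK1775 and 19.5 ± 1.12 in NC. It differed from MK1775 by -1.10 (log2, 95% interval -1.31 to -0.89, limma adjusted p = 0.0231) and from NC by -0.84. Its locus of 5 named genes differed from NC by -0.23 (adjusted p = 0.111), and no gene was called when a siRNA-labelled library, MK1775 library 2 or 3, or NC library 1 or 2 was left out (520 to 902 genes at an unadjusted p under 0.05). A p that misses the threshold does not show that both treatments act alike, so the intervals are given. The median 95% interval of the difference reached 0.235 to either side, and for 90.8% of genes it lay within -1 to 1. That margin is wide: even against NC, only 3.39% of genes were called at least 1 higher and 1.09% at least 1 lower. The 90.8% therefore does not show likeness to MK1775, and the same share against NC was not computed. Of the 468 genes that changed against NC by at least 1, 378 (80.8%) had an interval against MK1775 within -1 to 1. Both comparisons use the same NC libraries, so their values are set side by side and not correlated. Il11 was 33.0 ± 2.21 FPKM under the siRNA label and 33.5 ± 0.642 with MK1775, Cdkn1a 27.6 ± 1.60 and 29.8 ± 0.635, Ddit3 46.7 ± 3.09 and 43.2 ± 1.88, and Mmp3 29.2 ± 1.51 and 27.9 ± 1.21. Tcstv1 was 22.1 ± 2.28 and 15 ± 1.5 FPKM, a difference of 0.53 (log2, 95% interval 0.31 to 0.75) that did not pass the adjusted threshold.

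**Figure D5:**
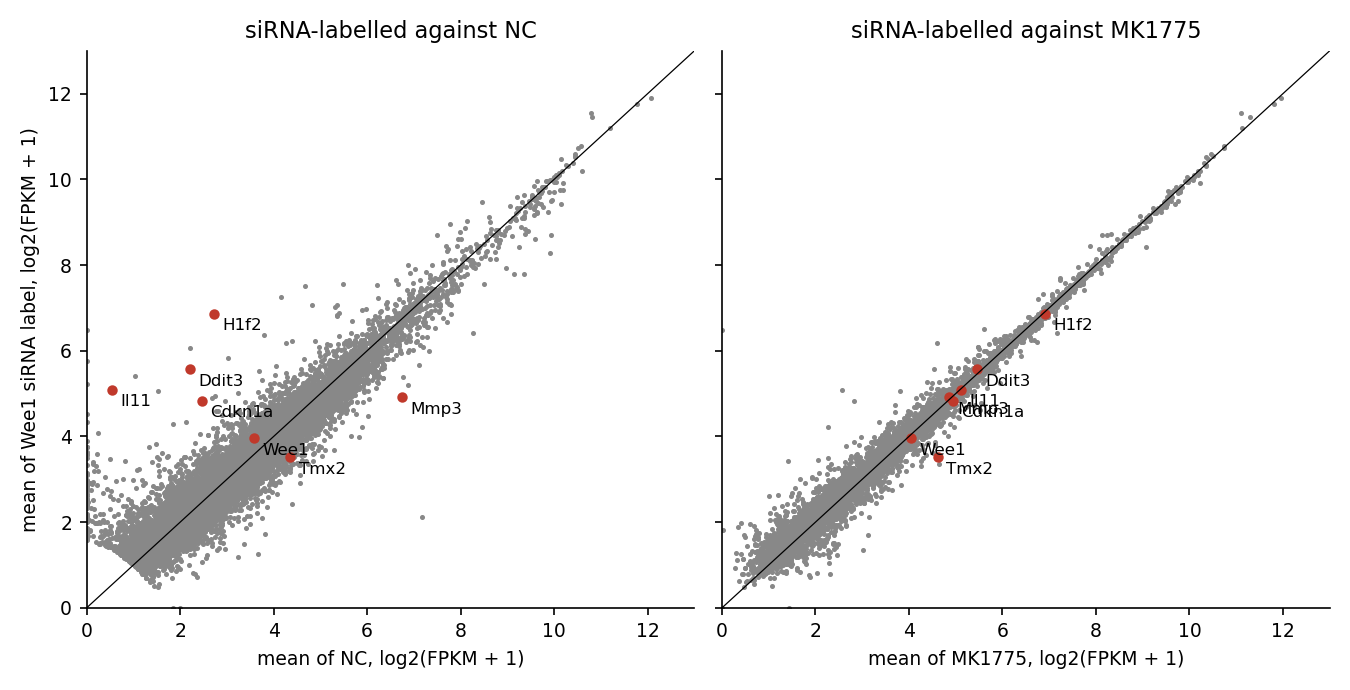
Mean level of each gene tested in the siRNA-labelled libraries (vertical axis, log2(FPKM + 1)) against its mean in NC (left panel) and in MK1775 (right panel), with the line of equality and 7 genes marked in red. Il11, H1f2, Cdkn1a, Ddit3 and Mmp3 lie off the line against NC and on it against MK1775, and Tmx2 lies below it in both.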

How the data were processed

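RNA-seq of 9 libraries from 4T1 cells was used, 3 per group. Per the labels' protocols, RNA was taken with a Qiagen spin-column kit and made into libraries with an NEBNext Ultra kit; strand is not stated. The submitters' processing notes name GRCm39 and, without versions, HISAT2, StringTie, Trim Galore and FastQC. The authors deposited FPKM per transcript and library (158719 transcripts), of which 17991 were assembled without a gene name. Depth is unknown, since no counts were used.

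FPKM were summed by gene name (52306 genes; 19 names on more than 1 chromosome were left out), and those whose mean in the 6 libraries reached 1 FPKM entered the test, on log2(FPKM + 1), a scale that understates changes of low genes. A single limma fit (version 3.58.1, R 4.3.3) used 3 group means over 9 libraries, eBayes with trend, two-sided tests and Benjamini-Hochberg adjustment over all genes tested, with a threshold of 0.05. The fit was tested on simulated data. Figures were drawn with matplotlib 3.10.9. Values are mean FPKM ± SD. Coordinates of genes are GRCm39 as deposited; promoters are RefSeq sequences of GRCm38.p6.

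The members and the 32 gene lists were chosen with earlier results of these data known. Named genes were Wee1, 10 rises and 10 falls of greatest size among genes called with official symbols, no overlap and a locus called the same way, up to 4 members of each list by adjusted p, and 23 fixed genes; no gene met the same conditions against MK1775. Tmx2, Fhl2, Nupr1, Trib3, Asns, Cth, Gadd45a, Tk1, Pcna, Ndc80, Nusap1, Junb, Fos, Skil, Ccna2, Plk1, Tcstv3 H2ac10, H2ac8 and the markers Epcam, Cldn7, Krt19, Itgax, Itgam, Ptprc and Cd68 fall outside this rule and were picked with their values known. A few genes are not reported here. Alternatives tried were other pseudocounts, filters, scalings, variance models, gene summaries, a replicate block and leaving out each library.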

Additional observations from a re-analysis of the deposited data

Results flagged for a closer look

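Signal outside the named genes was higher in the siRNA-labelled libraries than in NC. Assembled transcripts without a gene name took 12.6% ± 0.304 of all FPKM in the siRNA-labelled libraries, 10.5% ± 0.611 in NC and 12.4% ± 0.292 in MK1775 (SD, n = 3 each). Those in loci with no named gene took 3.81% ± 0.203, 2.91% ± 0.358 and 3.48% ± 0.0209 in the same order. For both measures every siRNA-labelled library was above every NC library.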

How the results depend on the processing

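Wee1 was higher in the siRNA-labelled libraries under all 23 alternatives run for it, with log2 differences of 0.33 to 0.46 and adjusted p from 6.18e-05 to 0.0255. Without a filter on low values 3678 genes were higher, and with a minimum mean of 5 FPKM 1245, against 2002. Leaving out 1 library at a time gave 3741 to 4335 called genes, against 4440. Against MK1775, 4 genes were called without a filter, 2 from the most abundant transcript per gene and 0 to 3 with a library left out, against 1. With the replicate number as a block, 4042 genes were called against NC and 0 against MK1775 (564 at an unadjusted p under 0.05). The numbers pair nothing that the labels state: libraries with the same number had correlations of deviations of -0.13, 0.04 and -0.04, and siRNA-labelled library 3 correlated best with NC library 1 (0.19). Of 3514 values of 154 called genes under alternatives, 3490 kept direction and call, 24 kept direction but lost the call and 0 turned; among 16 genes not called, 25 of 357 values passed the threshold in the same direction, and 17 values of 6 genes changed sign, of which 1 passed the threshold, Pdgfra at -0.35 with its whole locus summed. The cause was not tested. Summing whole loci was chosen after seeing the data. With median-of-ratios scaling 50.05% of called genes were higher, against 45.09%. Smaller pseudocounts raised the differences of genes near 0: at 0.01, Cxcl10 reached 2.54, Trp53inp1 4.05, H3c2 5.96 and Zfp352 10.28. Depth is unknown, so no limit of detection can be given, and 3 libraries per group limit the precision.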
